A study of Mus musculus with 9 samples.

Results

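The genes of the laminin chains Lama1, Lama2, Lama3, Lama4, Lama5, Lamb1, Lamb2, Lamb3 and Lamc1 were followed across 9 whole pancreatic tumors of the KPC mouse. They were taken by gene identifier from a table of 54453 genes. All 9 were in the table, and all 9 were among the 16169 genes that passed the filter on low counts. Polyadenylated RNA had been sequenced from 5 frozen primary tumors labelled Scrib null (tumors 7, 14, 15, 18 and 23), with the genotype written KPF/+CSF/F, and from 4 labelled Scrib WT (tumors 2, 3, 6 and 9), written KPF/+C. The comparison asks how gene expression differs between KPC tumors with and without Scrib, a scaffold protein of apical-basal polarity. Both groups carry the KPC alleles, which as background include a Cre recombinase active in the pancreas. The labels name neither the Cre driver nor the ages of the mice. Whether the tumors came from separate mice is not stated, and the p-values here describe tumor-to-tumor spread, which may in part be technical.

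Laminins are secreted as trimers of an alpha, a beta and a gamma chain and polymerise into the sheet on which a basement membrane is built, under epithelia and around vessels, nerves, muscle and fat cells. Cells bind laminin mainly through the globular end of the alpha chain, by integrins and dystroglycan, so the alpha chain sets much of what a trimer does. Lama5 is the common alpha chain of adult epithelia, Lama3 joins Lamb3 in the laminin that anchors epithelia through hemidesmosomes, Lama2 is the chain of muscle and peripheral nerve, Lama4 is found in vessel walls and fat, and Lama1 is best known from the early embryo. Lamb1, Lamb2 and Lamc1 enter many trimers. In the pancreas ducts and acini rest on such a membrane, which carcinoma cells cross when they invade.

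The total of estimated counts lay between 10145830 and 27596832 per tumor. Scrib had 102.2, 53.8, 55.5, 53.2 and 36.9 CPM (counts scaled to a common TMM-adjusted library size) in null tumors 7, 14, 15, 18 and 23, against 88.6, 44.1, 62.0 and 87.4 CPM in WT tumors 2, 3, 6 and 9. The groups overlapped (log2 fold change -0.23, edgeR adjusted p = 0.712), so directions refer to the labels and not to a measured loss of Scrib mRNA. The epithelial content was checked with epithelial markers, whose mean level was 9.53 to 10.30 log2 CPM in null tumors and 9.79 to 10.33 log2 CPM in WT tumors. Acinar markers summed to 7.21 to 253 CPM in null tumors and 18.8 to 241 CPM in WT tumors, highest in null 15 and WT 6. Islet markers summed to 2.12 to 68.1 CPM in null tumors and 0.54 to 49.9 CPM in WT tumors. WT 3 had the lowest TMM scaling factor, 0.835, and null 7 the lowest fibroblast, endothelial and pericyte marker levels.

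Lama5 and Lamb1 had higher mean levels in null tumors, Lama2 had lower levels in all null tumors, and Lama3 and Lamb3 were high in a single null tumor. None of these differences passed the test over all genes. Of the 9 chains, 6 had a positive and 3 a negative log2 fold change (null over WT), with a median of 0.50 against -0.03 over all genes tested. In the edgeR quasi-likelihood test with Benjamini-Hochberg adjustment over all genes, 0 of 9 chains had an adjusted p under 0.05, as 0.0124% of all genes did, and 0 did with DESeq2, which gave no p for Lama2 (3.39% of all genes, or 3.94% on the same filtered genes) or limma-voom (0.0371% of all genes). At an unadjusted edgeR p under 0.05, Lama5 and Lamb1 were higher, 2 of 9 chains against 7.64% of all genes, and Lama2 was lower, 1 of 9 against 10.0% of all genes.

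**Figure D1:**
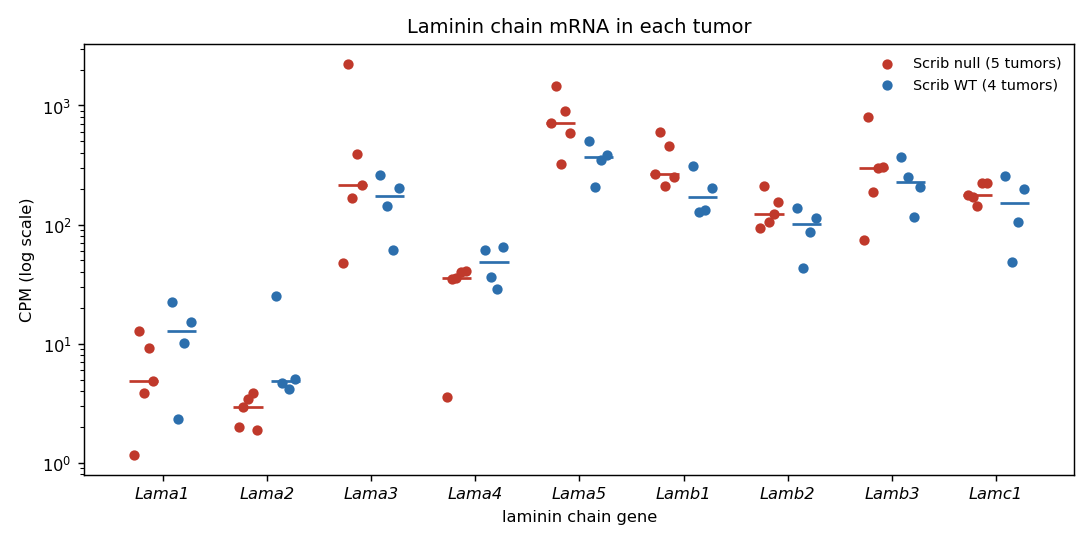
CPM (log axis) of each laminin chain gene in each tumor, with the 5 Scrib null tumors (red) left of the 4 Scrib WT tumors (blue) and a bar at each group's median. Null 14 stands far above the other tumors for Lama3 at 2248 CPM, null 7 far below them for Lama4 at 3.58 CPM and WT 2 above them for Lama2 at 25.2 CPM, and Lama2 is the only one of the 9 chains whose groups do not overlap.

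The upstream sequences of Lama5 and Lamb1 are shown because these chains varied closely together from tumor to tumor, and that of Lamb3 as a beta chain with another pattern. RefSeq windows (GRCm38.p6) were found for 5 of the 9 chains, and the starts meant here are those of RefSeq. They can differ from the GENCODE gene coordinates given for each chain. By GENCODE the Lamb1 gene starts at 31265234, within its window, and the Lamb3 window shown lies inside the gene span of 193207699 to 193343878. Each line gives the 250 bases before the annotated start, 5′ to 3′ on the gene's strand, for Lama5 at chr2:180225860-180226109 (minus strand), Lamb1 at chr12:31265043-31265292 (plus strand) and the first of the Lamb3 starts at chr1:193301744-193301993 (plus strand). Capitals mark matches to the GC box GGGCGG on either strand.
Lama5: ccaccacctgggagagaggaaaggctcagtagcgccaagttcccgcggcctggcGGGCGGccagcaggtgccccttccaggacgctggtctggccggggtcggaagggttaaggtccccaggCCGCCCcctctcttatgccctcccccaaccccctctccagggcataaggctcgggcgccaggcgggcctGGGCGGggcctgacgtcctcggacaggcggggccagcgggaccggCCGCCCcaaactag
Lamb1: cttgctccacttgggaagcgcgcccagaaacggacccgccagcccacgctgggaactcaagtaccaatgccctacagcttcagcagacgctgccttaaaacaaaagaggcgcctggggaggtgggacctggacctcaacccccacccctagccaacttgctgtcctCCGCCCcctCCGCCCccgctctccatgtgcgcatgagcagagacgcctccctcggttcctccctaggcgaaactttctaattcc
Lamb3: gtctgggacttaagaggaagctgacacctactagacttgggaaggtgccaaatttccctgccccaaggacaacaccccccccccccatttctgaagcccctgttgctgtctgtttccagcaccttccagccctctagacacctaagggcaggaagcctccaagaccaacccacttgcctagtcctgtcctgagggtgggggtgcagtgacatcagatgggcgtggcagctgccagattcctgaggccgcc
The Lama5 window held 4 GC boxes and the Lamb1 window 2, while this Lamb3 window held 0. The windows of Lama2, Lamb2 and the second Lamb3 start also held 0, and Lamb2 had an r of 0.81 with Lama5 over the tumors. Of 32851 windows of this length, 32.7% held at least 1 GC box. The windows shown held no TGANTCA (the AP-1 motif, in 6.75% of all windows), no GGAATG (the TEAD motif, in 12.6%) and no TATAAA (in 12.4%), each searched on both strands, and no matches overlapped. The second Lamb3 start had 1 GGAATG, 167 bases upstream. The motifs were chosen after the tumor-to-tumor patterns were known, and a match describes letters, not a bound site.

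Lama5 (chromosome 2, 180176373 to 180225859, GRCm38), the common epithelial alpha chain, had 712, 1468, 322, 898 and 589 CPM in null tumors 7, 14, 15, 18 and 23, against 504, 206, 352 and 381 CPM in WT tumors 2, 3, 6 and 9. Of the null tumors 4 lay above every WT tumor, and null 15 lay within the WT range. The means were 798 ± 429 CPM in null tumors (SD, n = 5) and 361 ± 123 CPM in WT tumors (SD, n = 4). The 2.21-fold difference had a 95% interval from 1.15-fold to 4.25-fold (edgeR adjusted p = 0.233; exact two-sided permutation p = 0.0794). Its log2 value of 1.15 (SE 0.43) ran from 0.81 to 1.35 with each tumor left out in turn, and was 1.03 without both WT 3 and null 7. With a marker level as covariate it was 1.28 (fibroblast), 1.26 (endothelial) and 1.12 (epithelial).

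Lamb1 (chromosome 12, 31265234 to 31329644), a beta chain that assembles with Lama5, had 268, 595, 212, 458 and 249 CPM in null tumors 7, 14, 15, 18 and 23, against 309, 128, 134 and 205 CPM in WT tumors 2, 3, 6 and 9. All 5 null tumors lay above WT 3, WT 6 and WT 9, but only null 14 and null 18 lay above WT 2. The means were 356 ± 164 CPM in null tumors (SD, n = 5) and 194 ± 84.5 CPM in WT tumors (SD, n = 4), with a log2 fold change of 0.88 (SE 0.39, edgeR adjusted p = 0.276; exact two-sided permutation p = 0.119). It ran from 0.61 to 1.20 with each tumor left out in turn. The tumor identifiers fall into a lower range with 3 null tumors and 1 WT tumor and a higher one with the rest, too few for a comparison within each. With that range as covariate the log2 fold change was 0.79 for Lamb1 and 1.04 for Lama5.

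Levels of Lama5 and Lamb1 followed each other across tumors. Of 36 pairs of chains compared, 2 had a Pearson correlation of log2 CPM with an exact permutation adjusted p under 0.05, namely Lama5 with Lamb1 and Lama3 with Lamb3. For Lama5 and Lamb1, over 9 tumors, r was 0.93 (exact permutation p = 0.000292, adjusted p = 0.00526) and Spearman's rho 0.90 (exact permutation p = 0.00203, adjusted p = 0.0365). Without null 14 and WT 3, the tumors farthest from the median of Lama5, r was 0.83, and with each group's mean subtracted it was 0.89. The identifier ranges hold too few tumors for a value within each. The tumors share their libraries and the scaling of those libraries across all chains. How often pairs among all genes reach such an r was not tested. By the similarity of patterns described below, Nrf1, Hnrnpa1 and Tacc2 lay closer to Lama5 than Lamb1 did. Gdpd5, Tacc2 and Pear1 lay closer to Lamb1 than Lama5 did.

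Lama3 (chromosome 18), the alpha chain of the anchoring laminin, had 48.0, 2248, 168, 394 and 215 CPM in null tumors 7, 14, 15, 18 and 23, against 259, 143, 61.7 and 202 CPM in WT tumors 2, 3, 6 and 9. Null 14 held far more than any other tumor, null 7 held the least, and the groups overlapped. The means were 614.5 ± 921 CPM in null tumors (SD, n = 5) and 166.5 ± 84.5 CPM in WT tumors (SD, n = 4), with a log2 fold change of 1.88 (SE 0.96, edgeR adjusted p = 0.323; exact two-sided permutation p = 0.556). Without null 14 it was 0.31, with limma-voom 1.06 and with the epithelial marker level as covariate 0.79. The summed epithelial markers of null 14 were also the highest of the 9 tumors, at 13260 CPM against 6998 to 12060 CPM in the others. By their mean log2 level WT 3 was highest, with 10.30 log2 CPM in null 14 and 10.33 log2 CPM in WT 3, which had 143 CPM of Lama3. Of the exon bases of Lama3, 197 are shared with an antisense gene.

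Lamb3 (chromosome 1, 193207699 to 193343878), the beta chain of the same laminin, had 74.4, 798, 186, 299 and 304 CPM in null tumors 7, 14, 15, 18 and 23, against 369.9, 251, 115 and 206 CPM in WT tumors 2, 3, 6 and 9. Null 14 was again highest and null 7 lowest, with all WT tumors between them. The log2 fold change was 0.50 (SE 0.58, edgeR adjusted p = 0.656; exact two-sided permutation p = 0.675), but -0.12 without null 14. It was 0.16 with the epithelial marker level as covariate, and 1.03 and 1.05 with the fibroblast and endothelial levels. Lama3 and Lamb3 had an r of 0.94 over the 9 tumors (exact permutation p = 0.000267, adjusted p = 0.00526) and a rho of 0.90 (exact permutation p = 0.00203, adjusted p = 0.0365). Without null 14 and null 7 r was 0.85, and with each group's mean subtracted it was 0.96.

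**Figure D2:**
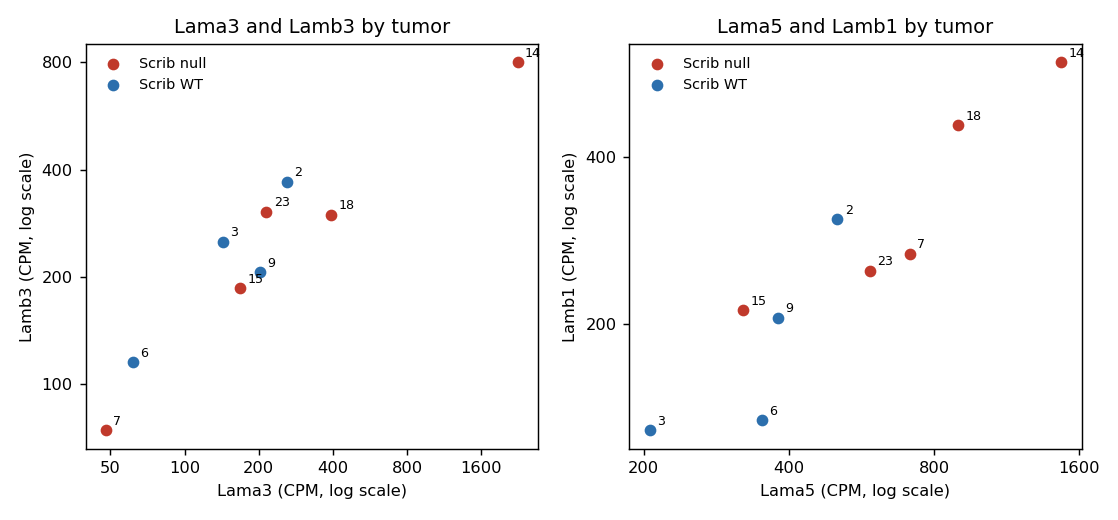
CPM (log axes) of Lamb3 against Lama3 (left) and of Lamb1 against Lama5 (right), 1 point per tumor with its number, Scrib null in red and Scrib WT in blue. Both pairs run along a diagonal with null 14 at the top; null 7 is at the bottom for Lama3 and Lamb3 (48.0 and 74.4 CPM) and near the middle for Lama5 and Lamb1.

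Other chains known to share trimers gave an exact permutation adjusted p over 0.05 for r. Chains of the same class, which do not share a trimer, reached similar values in some pairs. The beta chains Lamb1 and Lamb2 had an r of 0.80 (exact permutation p = 0.00839, adjusted p = 0.0697). The alpha chains Lama1 and Lama4 had an r of 0.76 (exact permutation p = 0.00865, adjusted p = 0.0697), but Lama4 and Lama5 had -0.195. For Lama5 and Lamb2 r was 0.81 (exact permutation p = 0.00968, adjusted p = 0.0697) and rho 0.72 (exact permutation p = 0.0369, adjusted p = 0.190). Without null 14 and WT 3, the tumors farthest from the median of Lama5, r was 0.33. Leaving them out narrows the range, so this cannot show whether the relation rests on those tumors. With each group's mean subtracted r was 0.74. Lamb2 and Lamc1, a pair chosen after its values were seen, had an r of 0.83 (exact permutation p = 0.0119, adjusted p = 0.0715) and a rho of 0.70 (exact permutation p = 0.0433, adjusted p = 0.195), with r at 0.83 without WT 3 and null 14. For Lamb1 and Lamc1 r was 0.67 (exact permutation p = 0.0477, adjusted p = 0.2145) and rho 0.58 (exact permutation p = 0.108, adjusted p = 0.2795), with r at 0.79 without the same 2 tumors. For Lama5 and Lamc1 r was 0.63 (exact permutation p = 0.0680, adjusted p = 0.218) and rho 0.53 (exact permutation p = 0.1475, adjusted p = 0.2795), with r at 0.59 without them. Lama4 and Lamc1 had an r of 0.08 (exact permutation p = 0.811, adjusted p = 0.885) and a rho of 0.62 (exact permutation p = 0.0857, adjusted p = 0.2795), and r was 0.57 without null 7 and WT 9.

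Lama2 (chromosome 10, 26980036 to 27619758), the muscle and nerve chain, was present at a low level. It had 2.02, 2.95, 3.42, 3.87 and 1.87 CPM in null tumors 7, 14, 15, 18 and 23, against 25.2, 4.73, 4.16 and 5.03 CPM in WT tumors 2, 3, 6 and 9. All null tumors lay below all WT tumors, as held for 3.49% of all genes (6.91% in either direction), but the highest null and lowest WT tumors were close, and on unscaled libraries the groups overlapped. The log2 fold change was -1.78 (SE 0.58, edgeR adjusted p = 0.221), and -0.71 without WT 2. The exact two-sided permutation p was 0.00794, the smallest that splits of 5 and 4 tumors can give. Of its exon bases 631 are shared with the antisense gene Gm48084, and the labels do not say if libraries were stranded, so reads of these genes may not have been told apart.

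Lama4 (chromosome 10, 38965515 to 39110188), the chain of vessel walls and fat, had 3.58, 35.1, 35.7, 40.4 and 40.8 CPM in null tumors 7, 14, 15, 18 and 23, against 61.0, 36, 28.8 and 64.3 CPM in WT tumors 2, 3, 6 and 9. Null 7 held the least of all, the other null tumors lay close together, and WT 2 and WT 9 lay above every null tumor. The log2 fold change was -0.61 (SE 0.54, edgeR adjusted p = 0.5565; exact two-sided permutation p = 0.238), and -0.30 without null 7. Lama1 (chromosome 17, 67697259 to 67822647) had 1.16, 12.8, 3.87, 9.16 and 4.91 CPM in null tumors 7, 14, 15, 18 and 23, against 22.5, 2.32, 10.1 and 15.2 CPM in WT tumors 2, 3, 6 and 9. The groups overlapped, and the log2 fold change was -0.975 (SE 0.70, edgeR adjusted p = 0.462; exact two-sided permutation p = 0.222), or -0.53 without WT 2.

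Markers of vessels, fibroblasts and leukocytes had mostly negative fold changes in the same tumors, and in bulk tissue fewer cells of a type and less RNA per cell cannot be told apart. Endothelial markers were below 0 in 10 of 10 genes, with sums of 72.05 to 370.4 CPM in null tumors and 370.0 to 654.5 CPM in WT tumors. Pericyte and smooth muscle markers were below 0 in 9 of 10, with 92.0 to 548.9 CPM in null tumors and 516.6 to 915.2 CPM in WT tumors. Pan-fibroblast markers were below 0 in 9 of 10, with 763 to 5878 CPM in null tumors and 2657 to 10360 CPM in WT tumors. These ranges overlapped, as did those of Schwann and nerve markers (22.4 to 57.9 CPM in null tumors and 20.3 to 79.1 CPM in WT tumors), of which 3 genes were above and 2 below 0. Leukocyte markers were below 0 in 8 of 8 genes tested, and mesothelial markers were above 0 in 3 and below 0 in 3. Mitochondrial transcripts, taken as a sign of RNA quality, were below 0 in 8 of 8, with a median log2 fold change of -0.51. They summed to 6524 to 23920 CPM in null tumors and 16570 to 27340 CPM in WT tumors, and their part in the chains' differences was not tested. Adipocyte markers, of which 3 of 6 were tested and Lep was at 0 in all tumors, summed to 30.9 to 52.6 CPM in null tumors and 75.7 to 308 CPM in WT tumors. These sums did not overlap, but the mean levels of the tested adipocyte markers did. They reached 2.885 log2 CPM in null tumors and began at 2.869 log2 CPM in WT tumors. Muscle markers, 2 of 6 tested, summed to 1.63 to 2.40 CPM in null tumors and 2.21 to 15.2 CPM in WT tumors.

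With the fibroblast level as covariate the log2 fold change was -1.24 for Lama2, 0.12 for Lama1 and 0.14 for Lama4. With the endothelial level it was -1.90 for Lama2, -0.40 for Lama1 and 0.26 for Lama4. Lama1 and Lama4 thus turned sign with the fibroblast level and Lama4 with the endothelial level, while Lama2 kept its sign. The part of adipocyte, nerve and muscle cells in the Lama2 difference was not tested.

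Lamb2 (chromosome 9, 108479736 to 108490530), a beta chain of vessel, muscle and nerve laminins, had 93.8, 212, 105, 123 and 155 CPM in null tumors 7, 14, 15, 18 and 23, against 138, 43.0, 86.9 and 114.5 CPM in WT tumors 2, 3, 6 and 9. The groups overlapped, with null 14 highest and WT 3 lowest (log2 fold change 0.53, SE 0.35, edgeR adjusted p = 0.431; exact two-sided permutation p = 0.214). The log2 value was 0.32 without null 14, 0.33 without WT 3 and 0.76 without WT 2. Lamc1 (chromosome 1, 153218922 to 153332786), the gamma chain of most laminins, had 178, 169, 144, 223 and 224 CPM in null tumors 7, 14, 15, 18 and 23, against 255, 48.7, 105 and 199.5 CPM in WT tumors 2, 3, 6 and 9. The WT tumors spanned the null tumors on both sides, with WT 2 above and WT 3 and WT 6 below all of them. The 95% interval of its difference ran from 0.66-fold to 2.30-fold (log2 fold change 0.30, SE 0.41, edgeR adjusted p = 0.702; exact two-sided permutation p = 0.452), and the log2 value was 0.05 without WT 3 and 0.67 without WT 2.

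**Figure D3:**
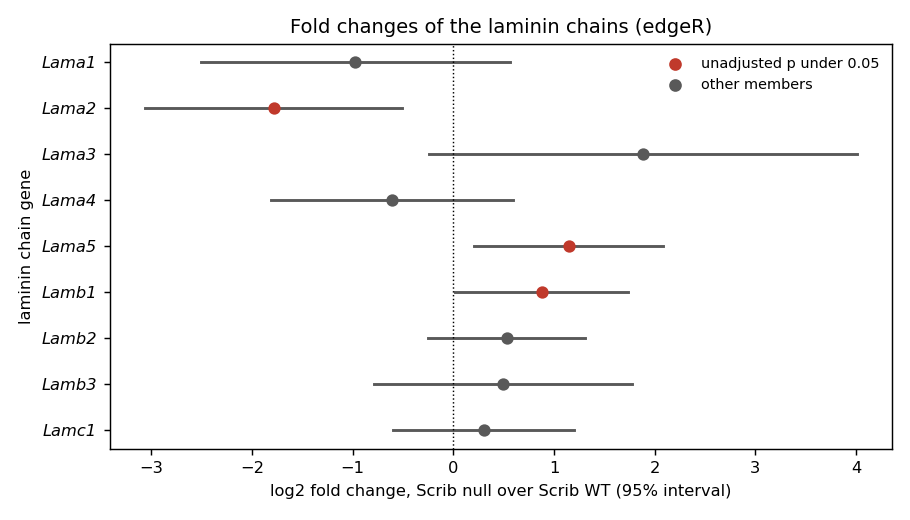
Log2 fold change of each laminin chain, Scrib null over Scrib WT, with its 95% interval from edgeR; red marks an unadjusted p under 0.05. Lama5 and Lamb1 lie above 0 and Lama2 below it with intervals that do not reach 0, and the interval of Lama3 is the widest, from -0.24 to 4.01.

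Levels of different chains were compared as CPM per kilobase of annotated exon. Ordered by mean log2 level over the 9 tumors, the chains ran Lama5, Lamb3, Lamb1, Lama3, Lamc1, Lamb2, Lama4, Lama1, Lama2. The first 6 had medians of 18.8 to 44.3 CPM per kb, and by exon length no neighbours among them differed beyond their spread (paired exact sign-flip permutation test, adjusted p from 0.227 to 0.961 over 8 neighbour pairs). Lamb2 exceeded Lama4 in 9 of 9 tumors, by 2.79 ± 1.27 in log2 CPM per kb (SD, n = 9; exact permutation adjusted p = 0.0156). Lama4 exceeded Lama1 in 9 of 9, by 1.96 ± 0.92 in log2 CPM per kb (SD, n = 9; exact permutation adjusted p = 0.0156). Lama1 exceeded Lama2 in 7 of 9 (exact permutation adjusted p = 0.0417), but in 6 of 9 by the length of the longest transcript or the coding length (exact permutation adjusted p = 0.227 and 0.194). By the longest transcript Lamb1 exceeded Lamc1 in 9 of 9 tumors, by 1.09 ± 0.60 in log2 CPM per kb (SD, n = 9; exact permutation adjusted p = 0.0104), and by coding length in 7 of 9 (exact permutation adjusted p = 0.0729). By those lengths Lamb3 came first and 5 of 9 chains kept their rank.

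Lama5 made up the largest part of the alpha chain mRNA per kb in 8 of 9 tumors. Its share was 92.6%, 37.6%, 59.5%, 65.7% and 68.3% in null tumors 7, 14, 15, 18 and 23, against 57.3%, 51.8%, 76.6% and 56.2% in WT tumors 2, 3, 6 and 9. Null 14 was the exception, with 61.1% Lama3, and null 7 had the smallest Lama3 share, 6.62%. Lama4 made up 2.95 ± 2.44% in null tumors (SD, n = 5) and 7.49 ± 1.49% in WT tumors (SD, n = 4), and of the null tumors null 15 alone, with 6.23%, reached into the WT range of 5.92% to 8.97%. Lama1 made up 0.57 ± 0.28% in null tumors (SD, n = 5) and 2.23 ± 1.05% in WT tumors (SD, n = 4). By coding length the mean Lama4 share was 5.98% in null tumors and 14.6% in WT tumors.

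Among the beta chains Lamb3 had the largest share in 7 of 9 tumors. Lamb1 led in null 7, with 50.3%, and in null 18, with 41.4% against 40.5% for Lamb3. By coding length Lamb3 led in null 18 as well. The Lamb1 share was 35.5 ± 10.2% in null tumors (SD, n = 5) and 27.4 ± 3.48% in WT tumors (SD, n = 4), and that of Lamb2 was 23.1 ± 5.53% in null tumors (SD, n = 5) and 22.8 ± 8.37% in WT tumors (SD, n = 4).

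**Figure D4:**
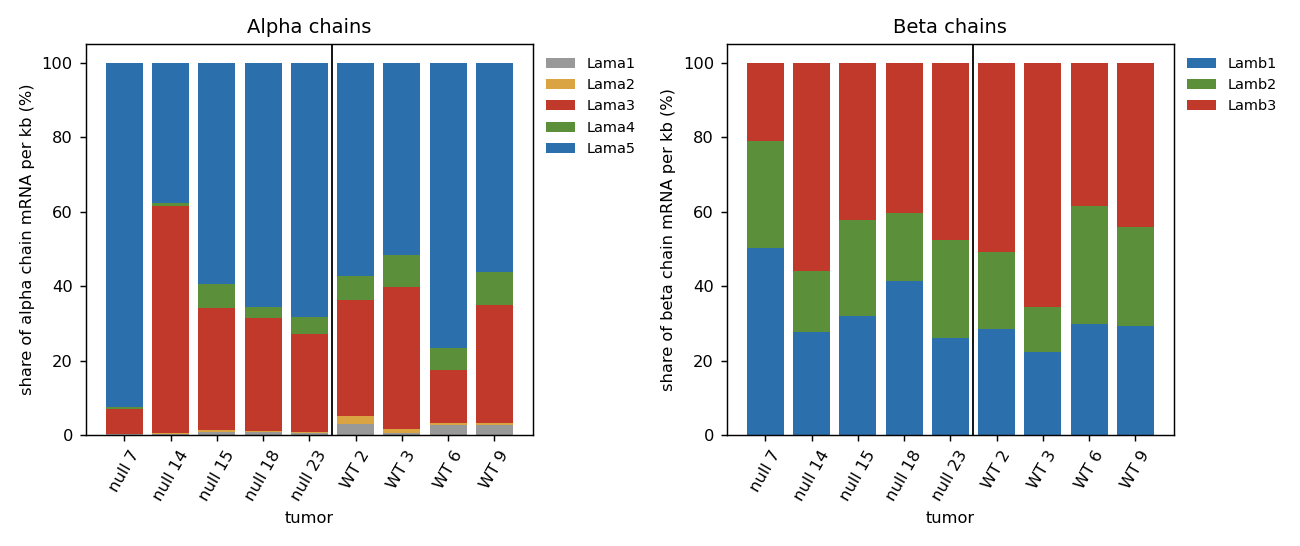
Share (%) of each chain in the alpha chain mRNA (left) and beta chain mRNA (right) of each tumor, per kilobase of exon, with the 5 Scrib null tumors left of the line and the 4 Scrib WT tumors right of it. Lama5 takes the largest alpha share in 8 tumors and Lama3 in null 14, and Lama4 is slight in null 7 and null 14 (0.44% and 0.85%).

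For each chain the 3 genes with the most similar pattern were found among 12186 genes, by the mean absolute difference of z-scored log2 CPM over the 9 tumors. For Lama4 they were Pde3a, the basement membrane linker Nid2 and Clmp, at 0.111, 0.117 and 0.131, and for Lamc1 they were Kmt2e, Cyfip1 and Dip2c, at 0.119, 0.125 and 0.141. For Lama1 they were the basement membrane collagen Col15a1, Heyl and Paqr4, at 0.178, 0.242 and 0.243. Lama5 was closest to Nrf1, Hnrnpa1 and Tacc2, at 0.149 to 0.185, and Lamb1 to Gdpd5, Tacc2 and Pear1, at 0.177 to 0.231. The genes closest to Lama3 were Mall, the simple-epithelial keratin Krt18 and Lamb3, at 0.234 to 0.284, and those closest to Lamb3 were the ductal keratin Krt7, Lama3 and Mdm1, at 0.272 to 0.304. Lamb2 was closest to Dnajc14, Odf2 and Mycbp2, at 0.179 to 0.187, and Lama2 to Trp53, Ccng1 and Usp2, at 0.253 to 0.311. Lama2 had 25.2 CPM in WT 2 and 1.87 to 5.03 CPM in the other tumors, so its pattern leans on that tumor. A link between any chain and the genes most like it was not tested.

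Collagen IV, the network that is linked to the laminin sheet, was measured in the same fit. Its 6 chains all had positive log2 fold changes, with a median of 1.30 against -0.03 over all genes, and 0 had an edgeR adjusted p under 0.05. At an unadjusted edgeR p under 0.05, 1 chain was higher, against 7.64% of all genes. The abundant chains Col4a1 and Col4a2 had log2 fold changes of 0.27 and 0.15. That of Col4a1 was 0.06 without WT 3, 0.09 without WT 6 and 0.54 without WT 9, and that of Col4a2 was below 0 without null 14, WT 3 or WT 6, at -0.01 to -0.09. Col4a5 had 39.5 ± 12.2 CPM in null tumors (SD, n = 5) and 22.8 ± 8.53 CPM in WT tumors (SD, n = 4), with 4 null tumors above every WT tumor (edgeR adjusted p = 0.254). Col4a6 had a log2 fold change of 1.81 with an SE of 1.10. Col4a3 and Col4a4, low in most tumors, had log2 fold changes of 2.06 (SE 1.38) and 1.91 (SE 1.43). Both were at 0 CPM in WT 3 and highest in null 18, at 9.31 and 13.0 CPM. The median of 1.30 thus rests on the less abundant chains.

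Of 16 other basement membrane genes tested, out of 17, 8 were above and 8 below 0, and 0 passed. At an unadjusted edgeR p under 0.05, 1 was higher and 2 were lower, against 7.64% and 10.0% of all genes. Tinagl1, a secreted matrix glycoprotein, had 378, 359, 220.3, 385.5 and 403 CPM in null tumors 7, 14, 15, 18 and 23, against 206, 126.3, 210.0 and 219 CPM in WT tumors 2, 3, 6 and 9. All null tumors lay above all WT tumors, also on unscaled libraries, as CPM values did for 3.42% of all genes, with null 15 next to WT 9 (log2 fold change 0.87, SE 0.26, edgeR adjusted p = 0.208; DESeq2 adjusted p = 0.0335). Sparc, a collagen-binding matrix protein, had 915 ± 435 CPM in null tumors (SD, n = 5) and 2046 ± 574 CPM in WT tumors (SD, n = 4). The groups did not overlap (edgeR adjusted p = 0.262). On unscaled libraries they nearly touched, with 1268 CPM in the highest null tumor and 1275 CPM in the lowest WT tumor. All null tumors lay below all WT tumors for 3.49% of all genes. Smoc2, a relative of Sparc, had 8.64 ± 5.58 CPM in null tumors (SD, n = 5) and 33.3 ± 19.6 CPM in WT tumors (SD, n = 4; edgeR adjusted p = 0.211, DESeq2 adjusted p = 0.0449). Pan-fibroblast markers were below 0 in 9 of 10 genes, with overlapping sums. With their level as covariate the log2 fold change of Sparc was -0.56, against -1.16 without it. That of Smoc2 was -1.70, against -1.95, and that of Tinagl1 was 0.86. With the endothelial level as covariate it was -0.30 for Sparc, -1.19 for Smoc2 and 0.87 for Tinagl1. The cause of these shifts was not tested. Col18a1, a basement membrane collagen, had a log2 fold change of 0.30, or 0.01 without WT 3 and 0.57 without WT 2.

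Of 13 receptors for laminin, 9 were above and 4 below 0, with a median of 0.31, and 0 had an edgeR adjusted p under 0.05. At an unadjusted edgeR p under 0.05, 3 were higher and 1 lower, against 7.64% and 10.0% of all genes. Itga3, the alpha subunit of an integrin that binds Lama3 and Lama5 laminins, had 780.1, 876, 1216, 1342 and 1345 CPM in null tumors 7, 14, 15, 18 and 23, against 739, 246.5, 452 and 607 CPM in WT tumors 2, 3, 6 and 9. All null tumors lay above all WT tumors, as for 3.42% of all genes, but on unscaled libraries null 7, at 763.2 CPM, lay just below WT 2, at 763.6 CPM, and the groups overlapped (log2 fold change 1.12, SE 0.34, edgeR adjusted p = 0.213; DESeq2 adjusted p = 0.0332). Its partner subunit Itgb1 had 938 ± 221 CPM in null tumors (SD, n = 5) and 932 ± 79.7 CPM in WT tumors (SD, n = 4). Bcam, a receptor for Lama5 of the immunoglobulin family, had 304 ± 124 CPM in null tumors (SD, n = 5) and 158 ± 34.5 CPM in WT tumors (SD, n = 4; edgeR adjusted p = 0.224). The syndecan Sdc1 had medians of 1153 CPM in null tumors and 1155 CPM in WT tumors.

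Of 7 hemidesmosome genes, which anchor epithelial cells to Lama3 laminin, 5 were above and 2 below 0, and 0 had an adjusted or an unadjusted edgeR p under 0.05. Over all genes 17.7% had an unadjusted edgeR p under 0.05. Itga6, a laminin-binding subunit, had 429.7 ± 113 CPM in null tumors (SD, n = 5) and 298 ± 118 CPM in WT tumors (SD, n = 4). Plec, the linker to keratin filaments, had 533 ± 179.7 CPM in null tumors (SD, n = 5) and 296 ± 221 CPM in WT tumors (SD, n = 4).

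**Figure D5:**
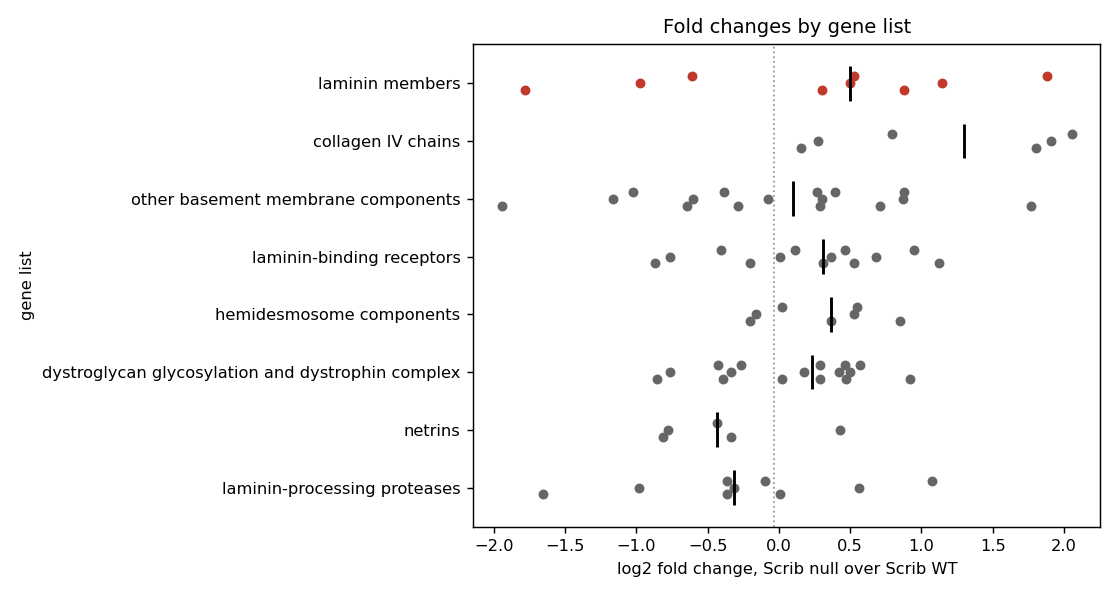
Log2 fold changes, Scrib null over Scrib WT, of the laminin chains (red) and of the genes of each list of laminin partners (grey), 1 point per tested gene, with a bar at each list's median and a dotted line at the median of all genes, -0.03. The 6 collagen IV chains lie above 0, and the medians of netrins and of laminin-processing proteases lie below it.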

How the data were processed

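Messenger RNA was sequenced from 9 tumors, grouped by the genotype in the labels. The deposited table held estimated counts per Ensembl gene, not normalized, 1 column per tumor. Salmon 1.4.0, DESeq 2, GRCm38 and mm10 are named, per the submitters' processing notes, with no annotation release. Salmon shares reads among transcripts, so overlapping or near-identical genes depend on that step. Symbols (54131 of 54453 rows), coordinates and lengths came from GENCODE M21.

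Counts were rounded (largest change 0.5), filtered by filterByExpr at a count of 10 and a total of 15, and tested with edgeR 4.0.16's quasi-likelihood test in R 4.3.3, with TMM scaling, no covariate and Benjamini-Hochberg adjustment over all 16169 genes. The SE is the log2 fold change over the square root of F. Log2 CPM used a prior count of 2. The fit was tested on simulated data. Alternatives were DESeq2 1.42.0, limma-voom (limma 3.58.1), other scalings, filters, lengths and covariates, and each tumor left out. The common biological coefficient of variation was 0.494, so spread between tumors, more than counting, limited precision.

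Members, lists and tests were chosen with earlier results of these data known. Named were all 9 chains, Scrib, the 2 smallest p and 2 highest CPM of each list, and the 3 genes most alike each chain. Col4a3 and Col4a4 were added later for their place in the collagen IV median. Other gamma chain genes are not reported here.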

Additional observations from a re-analysis of the deposited data

Results flagged for a closer look

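Of 34 groups of tumors examined, which hold the CPM of the laminin chains and the shares of the alpha and beta chains, 3 had a tumor far from the rest of its group by Dixon's criterion, and chance gives about 1 in 20. Lama3 had 2248 CPM in null 14, where the next null tumor had 394 CPM. Lama4 had 3.58 CPM in null 7, where the next null tumor had 35.1 CPM. Lama2 had 25.2 CPM in WT 2, where the next WT tumor had 5.03 CPM.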

How the results depend on the processing

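No paired analysis was possible because no replicate number is shared by the groups. No laminin chain passed the adjusted threshold under any alternative that gave a p; DESeq2 gave none for Lama2. Over the alternatives Lama2 stayed below 0 and Lama3, Lama5, Lamb1, Lamb2 and Lamc1 above it. The tally over all alternatives covers the log2 fold changes of the chains and of the partner genes named by p or CPM. Of these, 772 kept their direction and side of the threshold, 23 changed sign and 8 passed it anew, all with DESeq2 (Itga3, Mmp9, Smoc2 and Tinagl1). Over all genes, where edgeR called 0 higher and 2 lower, DESeq2 called 212 higher and 413 lower, DESeq2 on filtered genes 239 and 394, limma-voom 1 and 5, and edgeR with no low-count filter 1 and 6. With the identifier range, fibroblast or endothelial covariate, or without both WT 3 and null 7, 0 genes were lower, and 1 was with the epithelial covariate. With each tumor left out the count of lower genes ran from 0 to 1.

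Changes of sign occurred with the fibroblast covariate for Lama1 (0.12), Lama4 (0.14), Mmp14 (0.50) and Ntn4 (0.69), and with the endothelial covariate for Lama4 (0.26), Mmp14 (0.19) and Ntn4 (0.33). Itgb1, close to 0, was -0.0018 with RLE scaling and with DESeq2 on filtered genes, -0.082 with upper-quartile scaling, -0.0070 with a strict filter and -0.035 with the epithelial covariate. With each tumor left out the log2 fold change ran from -0.12 to 0.81 for Lamb3, -0.092 to 0.54 for Col4a2, -0.098 to 0.15 for Itgb1, -0.35 to 0.26 for Mmp14, -0.33 to 1.39 for Ntn1 and -0.037 to 0.23 for Sdc1. Chains whose groups did not overlap numbered 1 of 9, against 6.91% of all genes, and 0 on unscaled libraries. Of the partner genes named by p or CPM 3 did not overlap, and 2 on unscaled libraries, a check chosen after seeing the data. Genes named by p were picked for a difference, so their count cannot be read against the 6.91% of all genes. Among the partner genes not named, Rxylt1 did not overlap in CPM either. With the longest transcript or the coding length, 5 and 5 of 9 chains kept their rank; coding lengths came from the annotation. The cause of these changes was not tested. With 5 null and 4 WT tumors, intervals of several fold remain for most chains.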

Other observations

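Enzymes that give dystroglycan its laminin-binding sugar, with the dystrophin complex, were tested as 16 of 19 genes, of which 10 were above and 6 below 0 (median log2 fold change 0.23) and 0 had an edgeR adjusted p under 0.05. At an unadjusted edgeR p under 0.05, 1 was lower, against 10.0% of all genes. Sgcb, a sarcoglycan, had 13.3 ± 4.51 CPM in null tumors (SD, n = 5) and 24.2 ± 6.12 CPM in WT tumors (SD, n = 4; edgeR adjusted p = 0.234). Utrn, the widely expressed relative of dystrophin, had 116 ± 36.7 CPM in null tumors (SD, n = 5) and 61.3 ± 36.9 CPM in WT tumors (SD, n = 4; edgeR adjusted p = 0.310). The laminin receptor Dag1 had a log2 fold change of 0.46, and Pomt1, a mannosyltransferase that starts its sugar chain, 0.57.

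Of 9 tested proteases that cut laminin or process its partners, 3 were above and 6 below 0 (median log2 fold change -0.31), and 0 passed. At an unadjusted edgeR p under 0.05, 1 was higher and 1 lower, against 7.64% and 10.0% of all genes. With the fibroblast covariate 8 of 9 were above 0, and with the endothelial covariate 6. Over all genes the median log2 fold change was 0.014 with the fibroblast covariate and -0.024 with the endothelial covariate. The share of all genes above 0 with these covariates is not given here, so the counts are not particular to proteases. Mmp9, a gelatinase made largely by leukocytes, had 48.3 ± 18.3 CPM in null tumors (SD, n = 5) and 152 ± 87.4 CPM in WT tumors (SD, n = 4; edgeR adjusted p = 0.208, DESeq2 adjusted p = 0.0363). Leukocyte markers summed to 381.5 to 1651 CPM in null tumors and 1261 to 2768 CPM in WT tumors, and their part in the Mmp9 value was not tested. The proprotein convertase Pcsk6 had 95.7 ± 57.7 CPM in null tumors (SD, n = 5) and 45.4 ± 21.4 CPM in WT tumors (SD, n = 4; edgeR adjusted p = 0.271). Furin had a log2 fold change of 0.56 and Mmp14 of -0.10.

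Netrins, secreted proteins with laminin-like ends, were tested as 5 of 6 genes, of which 1 was above and 4 below 0 (median log2 fold change -0.44), and 0 had an adjusted or unadjusted edgeR p under 0.05. Over all genes 17.7% had an unadjusted edgeR p under 0.05. Log2 fold changes were 0.43 for Ntn1, -0.82 for Ntn3, -0.33 for Ntn4, which inserts into laminin networks, and -0.78 for Ntn5.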
